A study of Saccharomyces cerevisiae with 8 samples.

Results

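The genes described here are the 8 enzymes of heme synthesis and the heme oxygenase of *Saccharomyces cerevisiae*, *HEM1* (YDR232W), *HEM2* (YGL040C), *HEM3* (YDL205C), *HEM4* (YOR278W), *HEM12* (YDR047W), *HEM13* (YDR044W), *HEM14* (YER014W), *HEM15* (YOR176W) and *HMX1* (YLR205C). They were chosen by their systematic names, and all 9 were found among the 5797 genes of both deposited tables. Transcripts were profiled by RNA-seq in 3 Malaysian diploid parents (UWOPS05.227.2, UWOPS05.217.3 and UWOPS03.461.4), 2 wine/European diploid parents (BC187 and RM11-1) and 3 diploid hybrids between the populations. UWOPS03.461.4 was crossed to RM11-1b in YHL058 and to BC187 in YHL063, and YHL065 was made from BC187 and UWOPS05.217.3. In the labels the 4 parents other than RM11-1 and all 3 hybrids are MATa/@ HO, and RM11-1, made from RM11-1a and RM11-1b, is MATa/@ ura3 ho::kanMX. The strain list of the study gives YHL058 as heterozygous for ho::kanMX and RM11-1 as heterozygous at *LYS2* and *LEU2* too, and it holds each of the 4 other parents both as MATa/@ HO, as in the labels, and as a version with *URA3* and *HO* deleted. Every strain was grown once in the rich glucose medium YPD at 30° to mid-log phase (OD600 of 0.65 to 0.72) and sequenced as 1 library, so the strains of a population were the replicates and the spread between them includes their genetic differences.

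Heme is a ring of linked pyrroles that holds an iron atom, and it serves as the cofactor of respiratory cytochromes, catalases and sterol synthesis enzymes. Its synthesis begins in the mitochondrion with glycine and succinyl-CoA, continues in the cytosol, and ends in the mitochondrion, where ferrochelatase inserts iron. In yeast, heme also signals that oxygen is present, through the activator Hap1p and the repressor Rox1p, and heme oxygenase breaks heme down and releases its iron.

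The deposited values were normalized read counts, with the same upper quartile in every column of a table, so the number of reads behind a value cannot be read from them. They summed to between 63253487 and 67038479 in the parents and between 18739636 and 20966132 in the allele columns. These similar sums do not show equal depth. The study lists far fewer uniquely mapping reads for YHL065 than for YHL058 or YHL063, so the allele values of YHL065 rest on fewer reads. *HO* was at 0 in RM11-1 and between 51 and 127 in the other parents, as its genotype label has it. *URA3* went against the labels. It was at 101 in RM11-1, the parent labelled ura3, and between 21 and 32 in the 4 parents not labelled so, all far below the median gene, which was between 2496 and 2707. The haploid-specific genes *STE2*, *STE3*, *MFA1* and *MF(ALPHA)1*, which are low in diploids, lay between 58 and 442 in all parents.

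The sequence just upstream of a gene is where regulators such as Rox1p and Aft1p, the activator of the iron starvation genes, bind. Promoters of 3 members are shown, those of *HEM1* and *HMX1* because the results turn on them and that of *HEM13* because it is the pathway's oxygen-responsive gene. They are the S288C reference sequence of assembly R64 from RefSeq, from 250 bases before to 50 bases after the first base of the start codon, 5′ to 3′, and they are not the sequences of the strains. Capitals mark matches, on either strand, to ATTGTT (the Rox1p core), GCACCC (an Aft1p site), CCAAT (the site of the Hap2/3/4/5 complex) or the Hap1p site. No match overlapped another in the promoters shown.
HEM1, chrIV:927202-927501, plus strand: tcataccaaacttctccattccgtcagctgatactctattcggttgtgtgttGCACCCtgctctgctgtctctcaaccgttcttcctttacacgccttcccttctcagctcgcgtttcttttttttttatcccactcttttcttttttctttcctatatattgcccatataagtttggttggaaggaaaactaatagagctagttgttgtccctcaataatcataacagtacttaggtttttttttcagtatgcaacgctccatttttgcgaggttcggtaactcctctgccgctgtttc
HEM13, chrIV:546392-546691, plus strand: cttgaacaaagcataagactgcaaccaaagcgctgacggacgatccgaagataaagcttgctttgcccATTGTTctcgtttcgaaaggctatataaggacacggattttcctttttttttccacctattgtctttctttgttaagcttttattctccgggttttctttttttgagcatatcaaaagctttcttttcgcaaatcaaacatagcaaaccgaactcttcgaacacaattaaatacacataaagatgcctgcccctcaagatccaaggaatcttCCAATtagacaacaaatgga
HMX1, chrXII:553628-553927, minus strand: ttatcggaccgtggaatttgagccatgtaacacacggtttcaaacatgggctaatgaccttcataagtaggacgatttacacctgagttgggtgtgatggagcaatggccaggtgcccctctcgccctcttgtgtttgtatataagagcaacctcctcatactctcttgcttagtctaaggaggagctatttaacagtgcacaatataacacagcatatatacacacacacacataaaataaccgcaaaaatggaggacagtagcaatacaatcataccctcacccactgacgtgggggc

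*HEM1* alone among the 9 promoters held GCACCC, which was present in 4.26% of 6007 promoters of the same length, at 198 to 193 bases before its start codon. ATTGTT was found in 4 of the 9 promoters, *HEM3*, *HEM13*, *HEM14* and *HEM15*, and in 35.2% of all promoters. In *HEM13* it lay 182 to 177 bases before the start codon, whereas in *HEM15* it lay after the start codon, within the coding sequence. CCAAT was found in 5 of the 9, *HEM2*, *HEM3*, *HEM4*, *HEM13* and *HEM14*, and in 43.3% of all promoters, while the Hap1p site was in none of the 9 and in 0.133% of all. The CCAAT of *HEM13* and some of those of *HEM3* lay after the start codon. *HMX1* held none of these strings in this window. GCACCC is a fixed string, and other spellings of an Aft1p site were not searched. Its absence therefore does not show that *HMX1* or any other member lacks such a site. A match is a description of the reference letters only.

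Per kilobase of coding sequence, transcripts of *HEM2*, *HEM1* and *HEM12* were the most abundant of the 9 genes in the mean of the parents, and those of *HEM14* the least. Mean levels over the 5 parents were 9512 normalized read counts per kb for *HEM2* (porphobilinogen synthase), 9432 for *HEM1* (aminolevulinate synthase, the first enzyme) and 8337 for *HEM12* (uroporphyrinogen decarboxylase). *HEM3* (porphobilinogen deaminase) followed at 6196, *HEM13* (coproporphyrinogen oxidase) at 4610, *HEM15* (ferrochelatase) at 3574 and *HMX1* at 2722. *HEM4* (uroporphyrinogen III synthase) was at 1664 and *HEM14* (protoporphyrinogen oxidase) at 522, at percentiles 41.1 and 15.4 of all genes, whereas *HEM2* and *HEM1* were at percentiles 79.8 and 79.7.
The ranges over strains of most neighbors in this order overlapped. *HEM2* (8602 to 9960 per kb), *HEM1* (6619 to 14457) and *HEM12* (7482 to 8961) could not be ordered beyond their spread, and neither could *HEM13* (3323 to 6503), *HEM15* (2820 to 4382) and *HMX1* (412 to 4449). *HEM3* (5479 to 7356) lay below all values of *HEM12*, and *HEM14* (421 to 614) below all values of *HEM4* (1466 to 1885).
The top of the order changed with the population. *HEM1* had rank 1 of the 9 genes in BC187 and RM11-1 and rank 3 in each Malaysian parent. The level of *HEM1* per level of *HEM2* is a ratio within a library. It does not depend on the scaling for library size, but the authors' correction for GC content can still change it. This ratio was 0.712 in UWOPS03.461.4, 0.769 in UWOPS05.217.3, 0.743 in UWOPS05.227.2, 1.18 in BC187 and 1.55 in RM11-1.
The bottom of the order changed in BC187, where *HMX1* had rank 9, below *HEM14*. *HMX1* per *HEM1* was 0.514, 0.672 and 0.462 in the 3 Malaysian parents in the same order, 0.035 in BC187 and 0.123 in RM11-1.

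**Figure D1:**
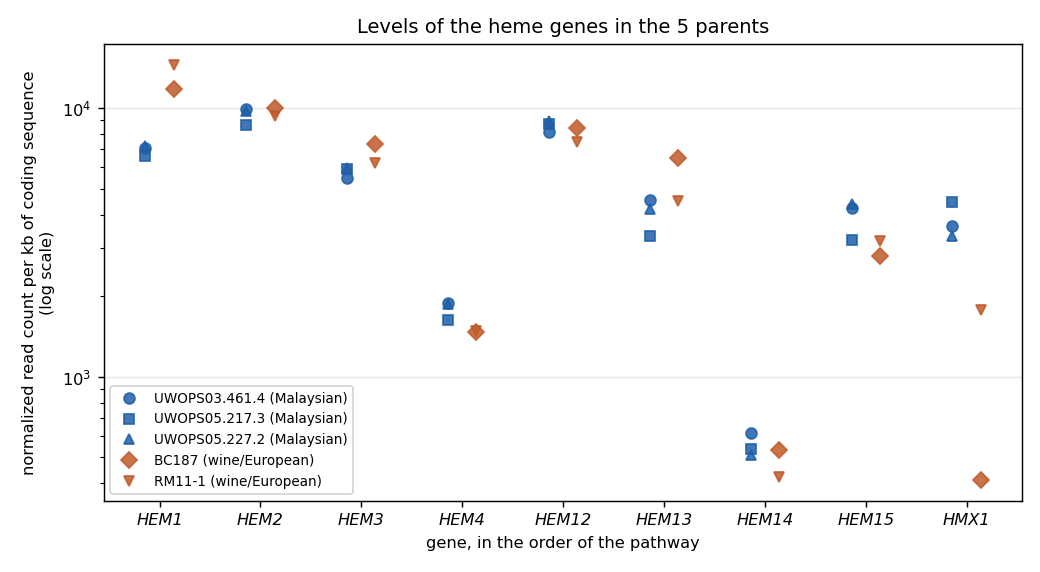
Normalized read counts per kb of coding sequence (log axis) of the 9 genes in the 5 parents, with 1 point per library, circles, squares and upward triangles for the Malaysian strains and diamonds and downward triangles for BC187 and RM11-1. *HEM1* is above all other members in both wine/European parents but not in the Malaysian parents, and *HMX1* is lowest in BC187 at 412 per kb.

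The parents were compared to ask which steps of the pathway differ between the populations. *HEM1* was expressed lower in Malaysian yeast, and it was the 1 gene of the 9 that passed the threshold of an adjusted *P* under 0.05 in limma, a linear model fitted here to log2(normalized count + 1) of all 5792 genes with a mean of at least 10. In the same comparison 10.9% of all genes passed, 5.06% higher and 5.82% lower in Malaysian yeast, so the number of heme genes past the threshold was close to the background. The values of the populations did not overlap for 5 of the 9 genes, *HEM1*, *HEM3*, *HEM4*, *HEM15* and *HMX1*, against 48.9% of all genes. Of these, *HEM4*, *HEM15* and *HMX1* were higher in every Malaysian parent (26.5% of all genes were) and *HEM1* and *HEM3* lower (22.4%). The median log2 ratio of the 9 genes, Malaysian minus wine/European, was 0.11, with 5 positive and 4 negative, beside a median of 0.03 for all genes.

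Aminolevulinate synthase, encoded by *HEM1* (YDR232W, chrIV:927452-929098, R64), joins glycine and succinyl-CoA in the mitochondrial matrix. Its normalized read count was 11645 in UWOPS03.461.4, 10901 in UWOPS05.217.3 and 11914 in UWOPS05.227.2, against 19402 in BC187 and 23810 in RM11-1. All 3 Malaysian values were below both wine/European values. The Malaysian mean of 11487 ± 525 (SD, n = 3) was 0.532 times the wine/European mean of 21606 ± 3117 (SD, n = 2). In limma the log2 ratio was -0.90 with a standard error of 0.13, a 95% interval from -1.22 to -0.59 and an adjusted *P* of 0.0158.
The adjusted *P* of *HEM1* rose to 0.0883 when UWOPS03.461.4 was left out and to 0.0798 when UWOPS05.227.2 was, with log2 ratios of -0.92 and -0.93.

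Heme oxygenase, encoded by *HMX1* (YLR205C, chrXII:552724-553677, R64) and bound to the endoplasmic reticulum, is a known target of Aft1p. Its normalized read count was 3464 in UWOPS03.461.4, 4244 in UWOPS05.217.3 and 3188 in UWOPS05.227.2, against 393 in BC187 and 1693 in RM11-1. Every Malaysian value was above both wine/European values, with pairwise log2 ratios between 0.91 and 3.43. The wine/European strains also differed from each other by 4.31 times, and at 98.8% of all genes they differed by less.
The means were 3632 ± 548 (SD, n = 3) and 1043 ± 919 (SD, n = 2), with a log2 ratio of 2.14 (standard error 0.60, 95% interval from 0.66 to 3.63), and the adjusted *P* of 0.0794 from limma missed the threshold. When UWOPS03.461.4, UWOPS05.217.3 or UWOPS05.227.2 was left out, the adjusted *P* was between 0.158 and 0.216, with log2 ratios between 2.02 and 2.23. With BC187 left out the log2 ratio was 1.09, and with RM11-1 left out it was 3.19. In the fits without BC187 or RM11-1 the single wine/European strain is assumed to vary like the Malaysian strains, so its own spread does not enter. Only the ratios of those fits are given here.

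**Figure D2:**
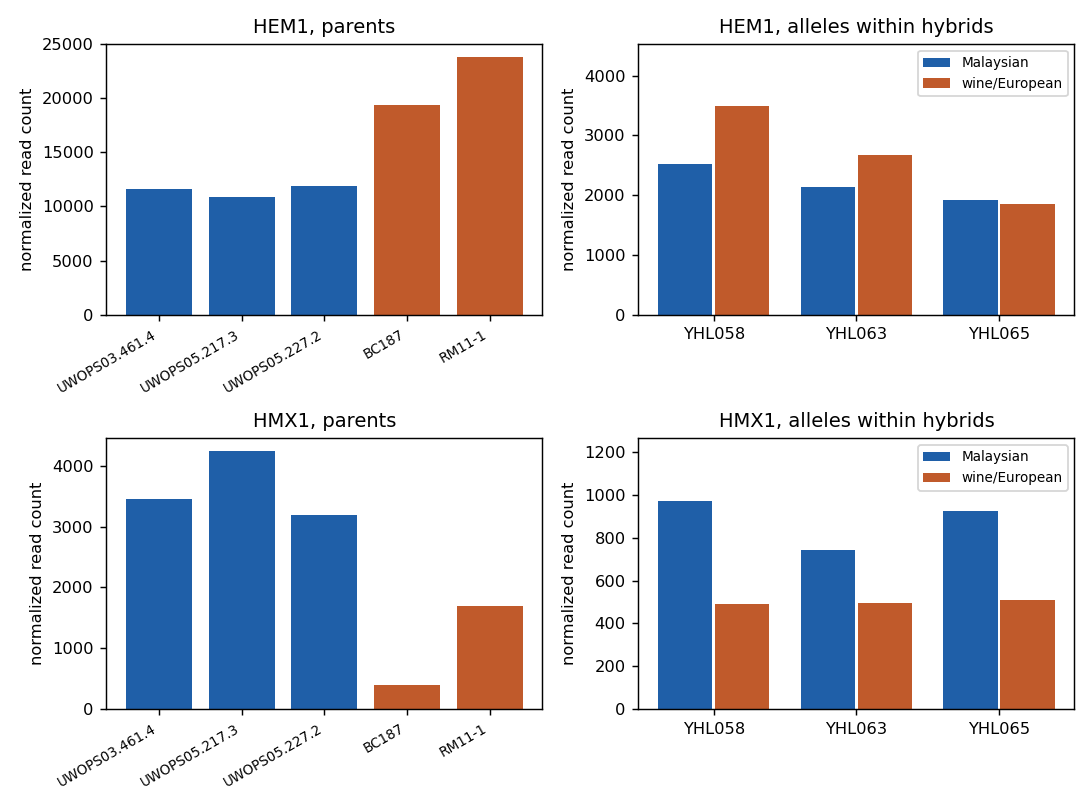
Normalized read counts (linear axes from 0) of *HEM1* (top) and *HMX1* (bottom) in the 5 parents (left) and of both alleles in the 3 hybrids (right), 1 bar per library or allele, with no error bars. *HEM1* is between 10901 and 11914 in Malaysian and between 19402 and 23810 in wine/European parents, and the wine/European allele of *HMX1* is between 490 and 511 in all hybrids.

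The cytosolic enzymes after *HEM1* did not pass the threshold. *HEM2* was nearly level, at 10225, 8851 and 10012 in the Malaysian parents and 10249 and 9601 in BC187 and RM11-1, with a log2 ratio of -0.036 (95% interval from -0.32 to 0.24, adjusted *P* = 0.853). *HEM12*, at 8852, 9451 and 9759 against 9185 and 8148, had a log2 ratio of 0.11 (interval from -0.16 to 0.38, adjusted *P* = 0.532). For both genes the values of the populations overlapped.
*HEM3* was at 5391, 5821 and 5890 in Malaysian and 7238 and 6143 in wine/European parents. Its log2 ratio was -0.23 (interval from -0.52 to 0.063, adjusted *P* = 0.25), and its values did not overlap. *HEM4* was at 1561, 1348 and 1537 against 1214 and 1227, with a log2 ratio of 0.28 (interval from -0.012 to 0.57, adjusted *P* = 0.177) and no overlap.
*HEM13* encodes the oxygen-requiring coproporphyrinogen oxidase and is repressed by Rox1p when heme and oxygen are present. It was at 4468, 3280 and 4160 in Malaysian parents and at 6418 and 4425 in BC187 and RM11-1, so the value of RM11-1 lay within the Malaysian range and that of BC187 above it. The log2 ratio was -0.44 (interval from -0.97 to 0.097, adjusted *P* = 0.233).

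The last steps take place at the inner mitochondrial membrane. *HEM15*, the ferrochelatase that inserts iron, was at 5023, 3803 and 5180 in Malaysian and 3333 and 3785 in wine/European parents. The Malaysian values were all higher, by 0.0068 on the log2 scale in the closest pair, and the log2 ratio was 0.38 (interval from -0.041 to 0.80, adjusted *P* = 0.197). *HEM14* was at 995, 867 and 824 against 864 and 682, with a log2 ratio of 0.22 (interval from -0.19 to 0.62, adjusted *P* = 0.406). *HEM14* overlaps the annotated gene YER014C-A on the other strand, and without strand in the counting their reads could be mixed. No other member overlapped an annotated gene, and no 100-base window of any of the 9 coding sequences occurred more than once in the reference genome.

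**Figure D3:**
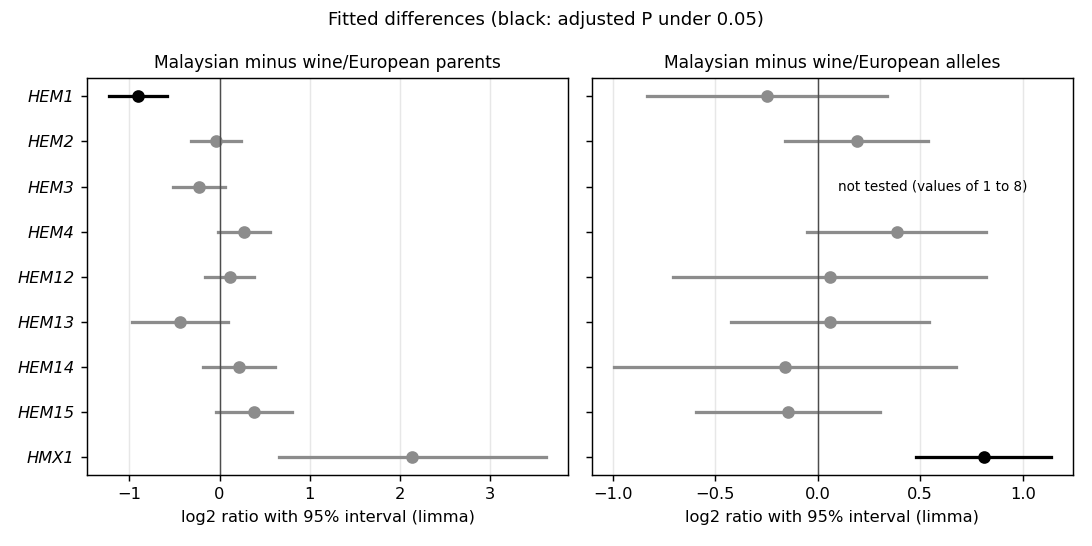
Log2 ratios, Malaysian minus wine/European, with 95% intervals from limma for the 9 genes in the parents (left) and between alleles (right), with different horizontal scales and with adjusted *P* under 0.05 in black. *HEM1* stands below 0 in the parents at -0.90 and *HMX1* above 0 between alleles at 0.81, and the intervals of the other genes include 0, apart from *HMX1* in the parents.

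In the hybrids both alleles of a gene share the cell, and their comparison asks for differences that go with the allele itself. Only reads over positions that differ between the parents were counted, so allele values cannot be compared between genes. Allele calls also depend on the strain genomes, which the authors amended. With uncorrected genomes the study's own test called no gene different between alleles. A bias in assigning reads to alleles was not tested here. *HEM3* could not be compared between alleles. Its Malaysian allele was at 4, 4 and 8 and its wine/European allele at 2, 1 and 4 in YHL058, YHL063 and YHL065, and its allele sum was 0.126% of its parental mean, where the median gene had 65.0% and 6 of all 5797 genes were as low or lower. The other 8 members had allele sums of 14.3% (*HEM12*) to 99.3% (*HEM4*) of the parental mean and were among the 5738 genes tested.

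*HMX1* was the 1 gene of the 8 past the threshold between alleles, with the Malaysian allele higher, against 4.71% of all genes tested (2.07% with the Malaysian allele higher and 2.63% with it lower). The Malaysian allele was at 973, 745 and 923 in YHL058, YHL063 and YHL065 and the wine/European allele at 490, 496 and 511. Every Malaysian value was above every wine/European value, and the wine/European values lay close together whether the parent was RM11-1 or BC187. The means were 880 ± 120 (SD, n = 3 hybrids) and 499 ± 10.8 (SD, n = 3), which differ by 1.76 times. YHL058 and YHL063 share their Malaysian parent, and YHL063 and YHL065 share BC187, so the hybrids are not independent samples of strains. The log2 ratio in limma was 0.81, with a standard error of 0.14, a 95% interval from 0.48 to 1.14 and an adjusted *P* of 0.0283.
With the alleles of a hybrid paired in the fit, the adjusted *P* of *HMX1* was 0.0137, and 17.9% of all genes passed in that fit (9.01% higher and 8.87% lower). When YHL058, YHL063 or YHL065 was left out, it was 0.122, 0.282 and 0.184 in the unpaired fit, with log2 ratios between 0.72 and 0.92.

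None of the 7 synthesis genes tested passed between alleles, in the unpaired or the paired fit of limma. At an unadjusted *P* under 0.05 none passed unpaired, where 17.6% of all genes did, and *HEM2* and *HEM4* passed when paired, where 35.8% did. *HEM1* had Malaysian values of 2525, 2133 and 1919 and wine/European values of 3485, 2667 and 1860, lower for the Malaysian allele in 2 hybrids and higher in YHL065. Its log2 ratio was -0.25 (95% interval from -0.83 to 0.34, adjusted *P* = 0.742, and 0.198 when paired). The Malaysian allele of *HEM2* was higher in all 3 hybrids, at 1771, 1545 and 1392 against 1546, 1380 and 1204, with a log2 ratio of 0.19 (interval from -0.16 to 0.54, adjusted *P* = 0.627, and 0.0698 when paired).
*HEM4* was also higher in all 3, at 821, 719 and 770 against 698, 637 and 458, with a log2 ratio of 0.39 (interval from -0.051 to 0.82, adjusted *P* = 0.347, and 0.124 when paired). *HEM4* and *HMX1* were the 2 of the 8 genes whose allele values did not overlap, both with the Malaysian allele higher, against 23.2% of all genes (11.9% higher and 11.3% lower). *HEM12*, *HEM13*, *HEM14* and *HEM15* had log2 ratios between -0.16 and 0.061, and none kept 1 direction in all 3 hybrids. *HEM12* was at 810, 810 and 400 for the Malaysian and 697, 692 and 482 for the wine/European allele, with both alleles lowest in YHL065 and a log2 ratio of 0.058 (interval from -0.71 to 0.82). *HEM13* was at 1105, 1316 and 1718 against 1164, 1214 and 1556, with both alleles highest in YHL065, and its log2 ratio of 0.061 had a 95% interval from -0.42 to 0.54. *HEM14* was at 161, 215 and 107 against 147, 255 and 138, with a log2 ratio of -0.16 (interval from -0.99 to 0.68), the widest interval of the 8 genes. *HEM15* was at 694, 562 and 556 against 804, 683 and 535, with a log2 ratio of -0.15 (interval from -0.59 to 0.30).

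The parental and allelic ratios of each cross are set side by side without a test, because the tables of parents and of hybrids had separate normalizations and each ratio rests on 1 library or 1 pair. For *HMX1*, UWOPS03.461.4 and RM11-1 had a log2 ratio of 1.03 and their alleles in YHL058 one of 0.99. In the crosses with BC187 the parents differed more, with 3.14 for YHL063 and 3.43 for YHL065, and the alleles had 0.59 and 0.85. The allelic ratio was thus near the parental one in the cross with RM11-1 and smaller in both crosses with BC187.
For *HEM1*, the parental log2 ratios were -1.03, -0.74 and -0.83 for YHL058, YHL063 and YHL065, and the allelic ones -0.46, -0.32 and 0.045. The allelic ratio was closer to 0 in each cross. For *HEM13*, the parental ratios were 0.014, -0.52 and -0.97 and the allelic ones -0.075, 0.12 and 0.14. *HEM15* was higher in the Malaysian parent of each cross, by 0.41, 0.59 and 0.19, while its alleles were at -0.21, -0.28 and 0.055.

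**Figure D4:**
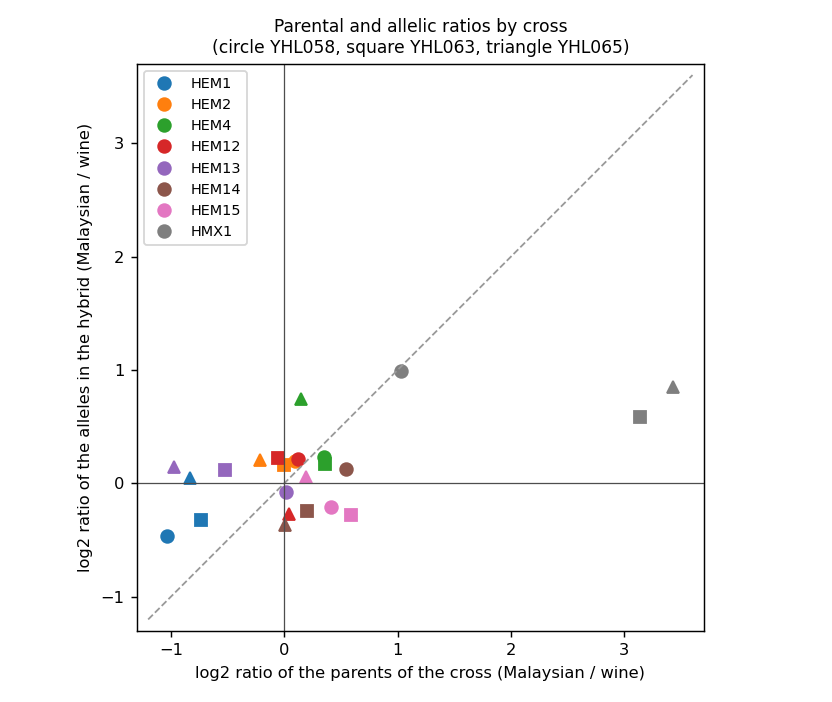
Log2 ratio of the alleles within a hybrid against that of its parents, Malaysian over wine/European, for 8 genes in 3 crosses (circle YHL058, square YHL063, triangle YHL065), with equal ratios on the dashed line and *HEM3* left out. *HMX1* lies near the line for YHL058, at 1.03 and 0.99, and far below it for both crosses with BC187, and the points of *HEM1* lie above the line.

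The genes whose levels over the 5 parents were most like those of *HMX1* were *ULI1*, *CAR1* (arginase) and *PNC1* (nicotinamidase), by the root mean square difference of centered log2 values among 5692 genes with a mean of at least 100. The differences were 0.22, 0.25 and 0.38 on the log2 scale. *CAR1* was at 32329, 44994 and 35941 in the Malaysian parents, 6258 in BC187 and 19705 in RM11-1, with the same order of strains at its low end. The genes most like *HEM13* were *EFT2*, *AIP5* and *TDA4*, with differences of 0.046, 0.051 and 0.070. *EFT2* has a near-identical copy, *EFT1*, and its value is uncertain. With 5 strains these are descriptions of shared profiles.

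Around the pathway, 54 genes in 6 lists were examined, and 7 of them passed the threshold in the parents, 3 higher and 4 lower in Malaysian yeast, against 10.9% of all genes. Among 9 genes that supply glycine and succinyl-CoA, *GLY1*, the threonine aldolase that makes glycine, fell and *LPD1*, a subunit shared by the mitochondrial dehydrogenases including that of oxoglutarate, rose. *GLY1* was at 19630, 22919 and 19843 in Malaysian and 30927 and 34303 in wine/European parents, with a log2 ratio of -0.65 (standard error 0.12 and adjusted *P* = 0.0343). The values did not overlap. *LPD1* was at 16270, 14041 and 13483 against 8427 and 9517, with a log2 ratio of 0.70 (with standard error 0.13, adjusted *P* = 0.0315), and the median of the list was 0.50, with 6 of 9 genes positive.
Of the 7 genes, *GLY1*, *LPD1*, *HAP5*, *CTT1* and *AFT1* no longer passed when UWOPS03.461.4 or UWOPS05.227.2 was left out, with adjusted *P* between 0.0943 and 0.159. *LPD1* was also lost without UWOPS05.217.3 (adjusted *P* = 0.0587). Fits without BC187 or RM11-1 leave 1 wine/European strain, so only their ratios are given. Without BC187 the log2 ratios of *LPD1* and *CTT1* were 0.61 and 2.27. Those of *GLY1* and *AFT1* without RM11-1 were -0.58 and -0.65.

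Of 9 regulators tied to heme, *HAP5*, a subunit of the CCAAT-binding activator of respiratory genes, rose, at 1838, 1937 and 1930 against 995 and 1194 (log2 ratio 0.80, standard error 0.12, adjusted *P* = 0.0183). *HAP1*, the heme-activated activator, had a log2 ratio of -0.31 (adjusted *P* = 0.264). The repressors of hypoxic genes *ROX1* and *MOT3* had ratios of -0.16 (adjusted *P* = 0.618) and 0.048 (adjusted *P* = 0.863). The median of this list was 0.048.

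Of 13 genes of heme proteins, *CTT1* rose and *YHB1* and *ERG11* fell. *CTT1*, the cytosolic catalase, was at 3724, 1393 and 3719 in Malaysian and 213 and 557 in wine/European parents (log2 ratio 2.96, standard error 0.60, adjusted *P* = 0.0376). *ERG11*, the heme-dependent lanosterol demethylase, was at 53168, 43663 and 56982 against 160834 and 169683 (log2 ratio -1.70, standard error 0.16, adjusted *P* = 0.00489). *YHB1*, the flavohemoglobin that detoxifies nitric oxide, was at 209, 140 and 144 against 136407 and 120863 (log2 ratio -9.63, standard error 0.20, adjusted *P* = 0.000103). In the hybrids its alleles were at 219, 268 and 132 (Malaysian) and 445, 426 and 721 (wine/European), without passing in limma (adjusted *P* = 0.0767). Both alleles were thus far below the values of the wine/European parents, in a table that was normalized separately. The reason was not tested.
*CYC1*, cytochrome *c*, was at 33428, 36097 and 32568 in Malaysian parents and 13139 and 27152 in BC187 and RM11-1 without passing (adjusted *P* = 0.136). No gene of siroheme synthesis, heme A synthesis, heme attachment or heme transport passed in the list of 9 such genes, whose median was -0.036. At an unadjusted *P* under 0.05, 1 of the 9 passed in limma, against 30.5% of all genes.

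None of the 6 hypoxic genes that are repressed when heme is present passed in limma, and 2 did at an unadjusted *P* under 0.05, against 30.5% of all genes, with a median log2 ratio of -0.34. BC187 had the highest value of the 5 parents at *ANB1*, *TIR1* and *AAC3*, as it did at *HEM13*. These 3 of the 6 were named after their values were seen. *ANB1*, an isoform of translation factor eIF-5A, was at 5619 in BC187, 937 in RM11-1 and 337 to 458 in Malaysian parents. *TIR1*, a cell wall mannoprotein, was at 5698, 1403 and 806 to 839, and *AAC3*, an ADP/ATP carrier, at 2202, 674 and 577 to 915. At the other 3 genes BC187 was not the highest. It was the lowest at *COX5B*, a subunit of cytochrome oxidase, with 808 against 997 to 1440. At *HMG2*, a reductase of sterol synthesis, it had 5554 against 3650 to 6364, and at *DAN1*, a cell wall mannoprotein, 114 against 67 to 131.
Of 8 genes of iron regulation and mitochondrial iron, *AFT1* fell, at 1390, 1714 and 1368 against 2323 and 2915 (log2 ratio -0.81, standard error 0.16, adjusted *P* = 0.0372). The median of this list was -0.37, and 4 of the 8 passed in limma at an unadjusted *P* under 0.05. By the same measure 6 of the 9 precursor genes, 2 of the 9 regulators and 7 of the 13 heme protein genes passed. The share of all genes was 30.5%.

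Between alleles, 2 of the 54 genes passed, both with the Malaysian allele higher, against 4.71% of all genes. *LPD1* was at 4563, 5060 and 4671 for the Malaysian and 3052, 3348 and 2885 for the wine/European allele, with a ratio on the log2 scale of 0.62 (standard error 0.11, adjusted *P* = 0.0309). *SCS7*, a sphingolipid hydroxylase with a heme-binding domain, was at 3867, 3783 and 3518 against 2727, 2444 and 2221 and had a log2 ratio of 0.60 (with standard error 0.12, adjusted *P* = 0.0426). Neither passed when any one of the hybrids was left out, with adjusted *P* between 0.0968 and 0.521.
When the alleles were paired, 7 of the 54 passed, against the same 17.9% of all genes, 4 with the Malaysian allele higher (*LPD1*, *SCS7*, *OLE1*, *HMG2*) and 3 with it lower (*HAP4*, *CCP1*, *DAP1*). *ERG11*, *CTT1*, *HAP5*, *AFT1* and *GLY1*, which passed in the parents, had allelic log2 ratios of 0.37, 0.0043, 0.45, -0.25 and 0.12, with adjusted *P* between 0.224 and 0.999.

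**Figure D5:**
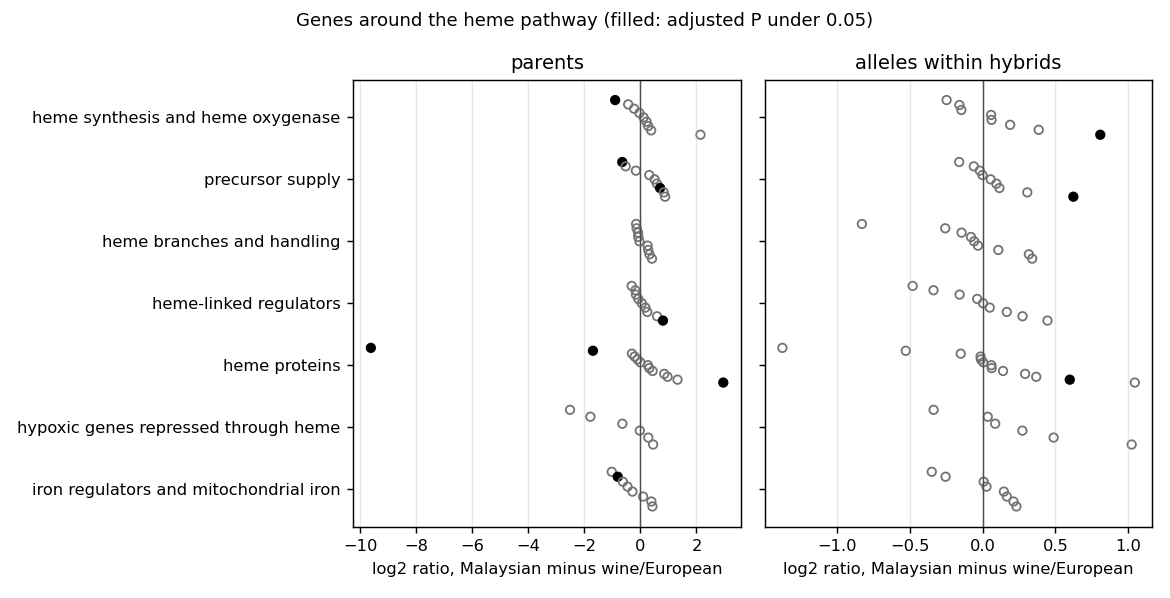
Log2 ratios, Malaysian minus wine/European, of the 9 heme genes and the 54 genes of the 6 lists in the parents (left) and between alleles (right), on different horizontal scales, 1 point per gene and filled where the adjusted *P* was under 0.05. In the parents *YHB1* lies farthest from 0, followed by *CTT1* at 2.96, and between alleles *HMX1*, *LPD1* and *SCS7* are filled, all above 0.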

How the data were processed

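Per the methods of the study, the authors mapped reads with Bowtie (version 0.12.7 in the submitters' processing notes) to strain genomes amended with SNPs, kept unique reads without mismatches, summed them per gene and normalized them with EDASeq for library size (upper quartile) and GC content. The supplement calls the deposited columns raw counts, but the values have the same upper quartile in every column of a table, so they were treated here as a score, counts normalized by the authors and rounded to whole numbers. For each hybrid, the genomes of its parents were joined into the mapping target. Columns of the authors' own comparison (means, fold changes and p-values from DESeq) were not used.

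Of the 5797 gene identifiers, 5792 matched the annotation of S288C assembly R64, the source of coordinates, coding lengths and promoters; the version of the reference used by the authors is not given in the sources used here. limma 3.58.1 in R 4.3.3 was run with a mean-variance trend on log2(value + 1), a scale that understates changes of low genes, for genes whose mean reached 10, with Benjamini-Hochberg adjustment over all genes tested and a threshold of 0.05. Alleles were not paired in the fit, after the methods of the study, and pairing by hybrid was an alternative. Both alleles of a hybrid come from the same library, and their deviations from the allele means correlated at 0.669, 0.541 and 0.476 within YHL058, YHL063 and YHL065 across 5738 genes. The other alternatives were the pseudocount, the filter, the scaling, no trend, and leaving out each library. The procedure was tested on simulated data. Python 3.11.15 with pandas 2.3.3 and matplotlib 3.10.9 was used for summaries and plots.

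The members and lists were chosen with earlier results of these data known. Named genes were all members, every list gene past the threshold, *HAP1*, *ROX1*, *MOT3* and *AFT1*, the label check genes, and the 3 genes most like *HEM13* and *HMX1*. Further genes were chosen once their values were known. Each strain was 1 culture, so p-values measure the spread between strains of a population or between hybrids, which share parents.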

Additional observations from a re-analysis of the deposited data

Results flagged for a closer look

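*GLY1*, the threonine aldolase that makes glycine, passed the threshold in the parents and not in the hybrids, with values of opposite sign in every pair of parents and every hybrid. Its parental log2 ratio, Malaysian minus wine/European, was -0.65, with all 6 pairs of parents at -0.43 or lower, whereas the Malaysian allele was higher in all 3 hybrids, by 0.061 or more, with a mean log2 ratio of 0.12 (adjusted *P* = 0.798 from limma, and 0.215 with paired alleles). Whether the parental and allelic ratios differ was not tested, because the tables were normalized separately. *GLY1* was picked for this pattern, and the share of all genes that show it is not given here.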

How the results depend on the processing

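With either other pseudocount, no filter, a mean of at least 100, either other scaling or no mean-variance trend, the 1 heme gene past the threshold was *HEM1* in the parents and *HMX1* between alleles. When single libraries were left out, the number of heme genes past the threshold was between 0 and 2 in the parents and 0 between alleles in every case. That of the 54 pathway genes was between 2 and 14 in the parents and between 0 and 1 between alleles, and that of all genes between 107 and 1011 in the parents and between 12 and 155 between alleles. The total was 107 without UWOPS03.461.4, 112 without UWOPS05.227.2, 1011 without RM11-1 and 12 without YHL063, and the cause was not tested. Between alleles, 1 pathway gene in place of 2 passed with median ratio scaling or without a trend, since *SCS7* was lost (adjusted *P* = 0.0519 and 0.0617). With the replicate block, which pairs the alleles of a hybrid, 7 pathway genes and 1026 genes in all passed, and the call of no heme gene changed.

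Leaving out a library was run for single ratios of the members and of the named pathway genes past the threshold, *HAP1*, *ROX1* and *MOT3*, and the directions that turned were these. The parental log2 ratio of *HEM2* ranged from -0.083 to 0.029 (0.029 without UWOPS05.217.3 and 0.011 without BC187) and that of *MOT3* from -0.17 to 0.27 (-0.017 without UWOPS03.461.4 and -0.17 without BC187). The allelic ratio of *HEM12* ranged from -0.026 to 0.22 (-0.021 without YHL058 and -0.026 without YHL063), that of *CTT1* from -0.14 to 0.094 (-0.14 without YHL063), that of *HAP1* from -0.12 to 0.013 (0.013 without YHL065) and that of *ROX1* from -0.089 to 0.082 (-0.089 without YHL058). The number of reads behind a single value is unknown, and among the hybrids the study lists the fewest uniquely mapping reads for YHL065. The width of the 95% intervals given for the members limits what 3 against 2 strains, or 3 hybrids, can show.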
